A study of Gallus gallus with 8 samples.

Results

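Heat shock proteins and chaperones are the proteins that fold other proteins, hold unfolded ones and bring damaged ones back into shape. They were followed here in the hypothalamus of growing chickens. Members were the spots whose gene symbol in the platform annotation starts with HSP, DNAJ, CCT followed by a number from 2 to 8, PDIA or FKBP, or is CANX, CALR, AHSA1 or TCP1. The rule found 100 of the 19200 spots on the array, which stand for 96 cDNA clones of 57 genes. Of these, 59 clones of 44 genes passed the filter on dim clones and were tested, among 8932 of 17708 clones. No spot carried the symbol CALR, HSP90AB1 or CCT3.

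Chickens of 2 lines, fat (FL) and lean (LL), gave hypothalamic RNA at weeks 1, 3, 5 and 7, all raised as broilers are usually raised, with no treatment named. Each of the 8 groups (LL and FL at each age) held 4 arrays, which the design text calls biological replicates. The sources used here do not give the sex of the birds, how the lines were bred, or whether birds were pooled. Each array set the RNA of 1 sample (Cy3) against 1 pool of all the samples (Cy5) on DEL-MAR spotted cDNA arrays. A value below is a log2 ratio of sample to pool, and a difference is between mean log2 ratios of groups, with its standard error (SE). A clone passed when its adjusted p from limma (Benjamini-Hochberg over all 8932 clones) was under 0.05. Because tissue RNA was measured, fewer cells of a type and less RNA per cell cannot be told apart.

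Most chaperones work in teams. HSP70 proteins bind unfolded stretches, J-domain proteins bring them clients and start their ATP cycle, and HSP90 with its activators finishes signalling proteins such as steroid receptors. The cytosolic chaperonin, a barrel of CCT subunits, folds actin and tubulin, and the mitochondrial chaperonin of HSPD1 and HSPE1 does the like for imported proteins. In the endoplasmic reticulum, HSPA5, HSP90B1, CANX and the PDIA disulphide isomerases fold secreted and membrane proteins, a heavy load in neurons that make peptide hormones. FKBP proteins are prolyl isomerases, several of which ride on HSP90.

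Median Cy3 signal over local background ranged from 2.33 on LL week 3 replicate 1 to 7.72 on LL week 1 replicate 4. At week 1 it was 3.60 ± 0.657 in FL and 5.52 ± 1.67 in LL (SD, n = 4 arrays each). FL week 7 replicate 3 stood apart: without it, 239 clones passed for the line difference at week 1, against 31 with it. Of 8 clones of neuron markers, 7 were above background on at least 16 arrays, as were 2 of 3 clones of hypothalamic neurons (POMC on 31 and 30 arrays, NPY on 5) and 8 of 10 clones of the neighbouring anterior pituitary (GH on 32 and 2 arrays, TSHB on 0). Gene names are uncertain. The authors' deposited table of values matched the array files by place in 64503 of 64503 values (within 0.005). By spot name it matched in 1775 of 30053, so the sources of names disagree. The array files' names were used, under which 79 ribosomal protein spots were brighter (12.7 against 10.7, log2). Even so, spots that share an accession printed 2 times showed no like brightness (Spearman rho -0.05 over 422 pairs of spots). Under the deposited table's names that rho was 0.02, so this check favoured neither source. Over the spots of all shared accessions rho was 0.42 (702 pairs). Spots of 1 gene from different accessions showed little likeness (rho 0.09 over 4554 pairs). A value below therefore belongs to its spot or spots, and both the clone and the gene named with it are uncertain. Where a gene had several tested clones, they are numbered in the order of their identifiers.

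Of the 59 tested clones, 21 were above background on all 32 arrays, and the one with the fewest (CCT5) was so on 10. Of the 37 clones left untested, 13 were above background on 0 arrays. The 13 genes without a tested clone included TCP1, a subunit of the cytosolic chaperonin, DNAJB6, a J-domain protein that holds back aggregates, the small heat shock protein gene HSPB8 and the disulphide isomerase gene PDIA5. An untested clone may be dim or poorly spotted, and nothing is said of its gene.

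At week 1, the age at which any clone passed for the line difference, HSPA9 (mortalin, the HSP70 of mitochondria) was the 1 chaperone that passed, and it was lower in FL. Clones of CANX and HSP90B1 had differences of like size, and DNAJA1, AHSA1, HSPA8 and 1 of 2 HSPA5 clones had smaller ones on the same side, but these did not pass. DNAJC12, FKBP3 and HSPA4 had differences on the other side that did not pass either. In all, 1 of 59 members passed, against 0.347% of all clones (31 of 8932).

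HSPA9 gave log2 ratios of 0.03, -0.02, 0.08 and 0.20 on the 4 LL arrays of week 1. On the FL arrays it gave -0.45, -1.02 and -0.81, and 1 array had no usable value. The 3 FL values all lay below the 4 LL values. The difference was -0.83 ± 0.17 (SE, 3 of 3 FL arrays below the LL mean, adjusted p = 0.0317, limma). No FL array of week 1 measured the clone above background, so its size is given as a bound from the Cy3 channel alone. With FL values raised to the dimmest signal above background on their arrays, the mean was 1.43-fold lower in FL. This bound leaves the pool channel aside and carries no error for the spread between arrays. The measured Cy3 means were 10.9 in LL and 9.83 in FL (log2).

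The HSPA9 call was fragile. It was lost when any 1 of the 4 LL arrays of week 1 or FL week 1 replicate 2 or 4 was left out (adjusted p from 0.00188 to 0.111 over the 32 such fits). It was also lost with scaling between arrays, with no filter on dim clones, with signal over background as a covariate (difference -0.72, adjusted p = 0.162) and when only the week 1 arrays were fitted. With a threshold for background set by the empty spots of satisfactory quality alone, HSPA9 was not tested and 0 of 50 members passed at week 1 (13 had an unadjusted p under 0.05, limma). Of all 7464 clones tested under that threshold, 14 passed and 1335 had an unadjusted p under 0.05 (limma). The threshold used here was settled after the calls under both had been seen. The gene's 2 other clones were too dim to be tested.

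**Figure D1:**
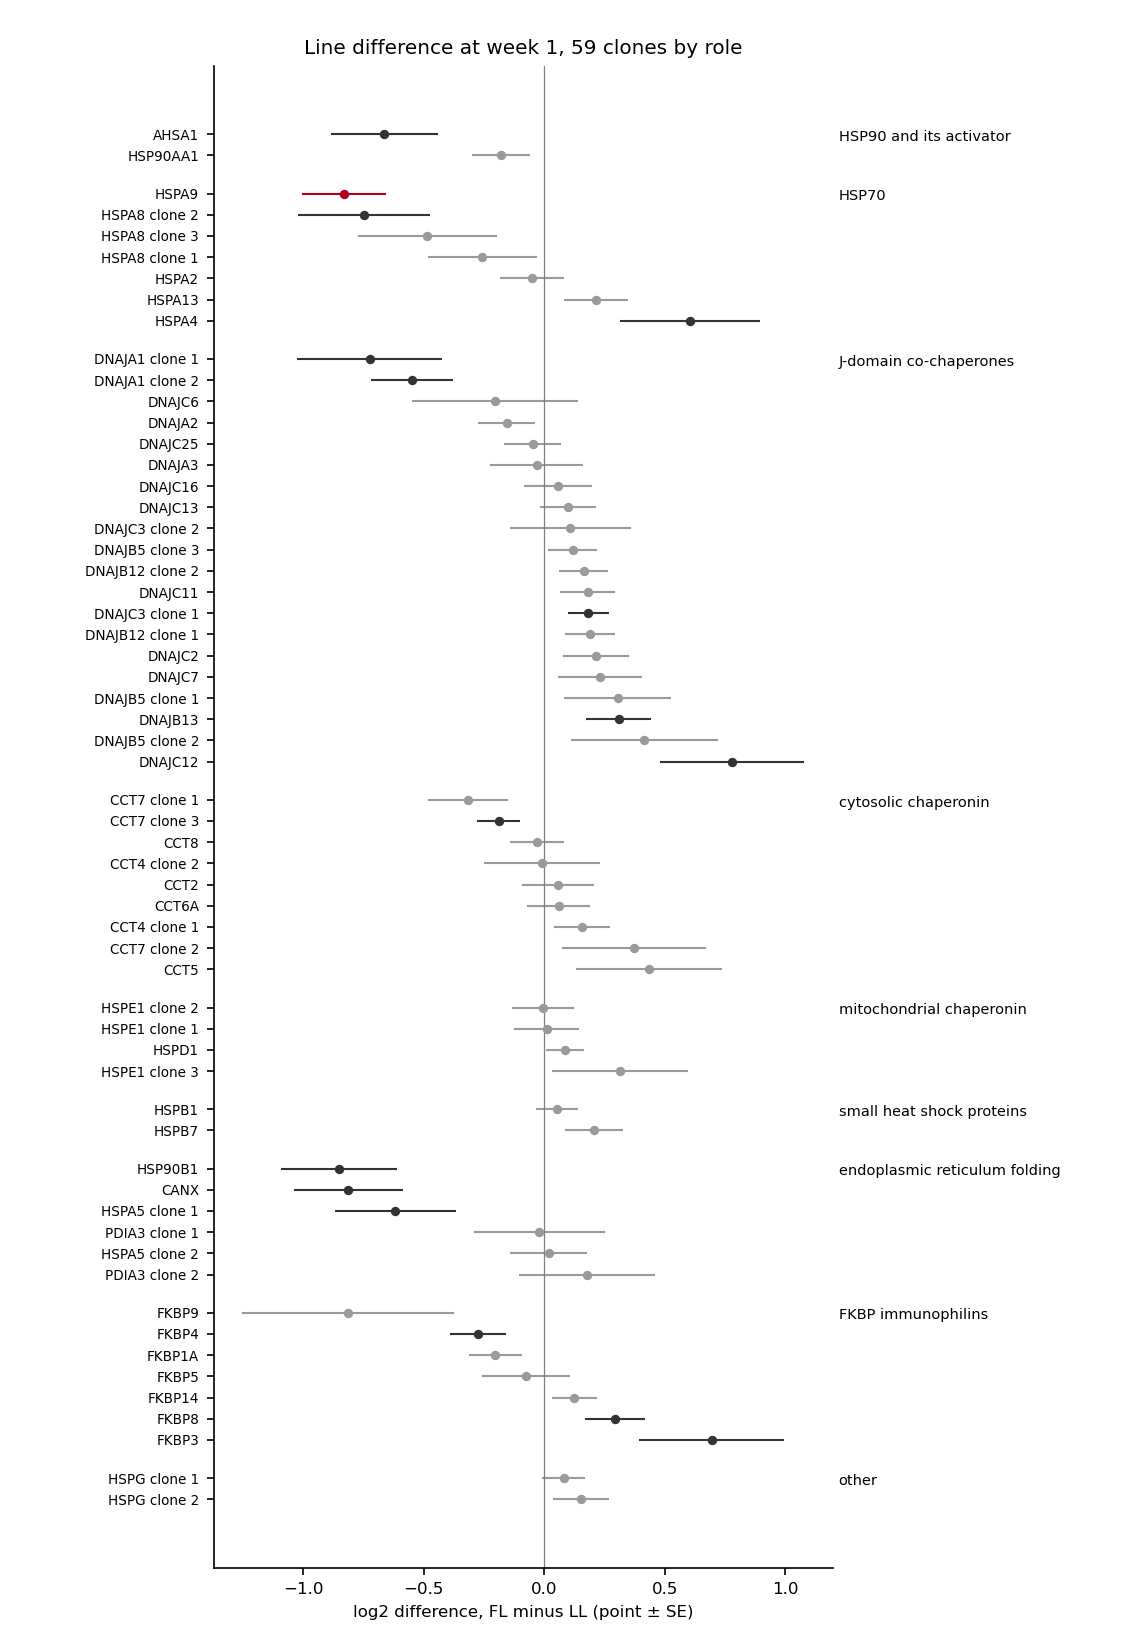
Difference in mean log2 ratio between the lines at week 1 (horizontal axis, FL minus LL, point ± SE). Shown are the 59 tested member clones, grouped by role. Red marks the 1 clone that passed (HSPA9, -0.83), dark grey the other clones with an unadjusted p under 0.05, light grey the rest; the lowest values are those of HSP90B1, HSPA9, FKBP9 and CANX, the highest those of DNAJC12 and FKBP3.

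In the endoplasmic reticulum group, 0 of 6 clones passed at week 1 and 3 had an unadjusted p under 0.05. HSP90B1 (GRP94, the HSP90 of this compartment) gave 0.61, 0.52, 0.31 and 0.73 in LL and -0.36, -0.09, -0.21 and -0.57 in FL. The groups did not overlap, with all LL arrays above and all FL arrays below the pool. The difference was -0.85 ± 0.24 (adjusted p = 0.0929, limma).

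CANX (calnexin, a membrane lectin that holds new glycoproteins until they fold) gave 0.24, 0.30, -0.10 and 0.31 in LL. In FL it gave -1.01, -0.71, -0.12 and -0.68, again without overlap, although narrowly at replicate 3 of each line. The difference was -0.81 ± 0.23 (adjusted p = 0.0852). Only 2 of the 4 FL arrays measured it above background. Both CANX (adjusted p = 0.00828) and HSP90B1 (0.0142) passed without FL week 7 replicate 3, an array outside the comparison that feeds the shared estimate of spread.

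The clones of HSPA5 (BiP, the HSP70 of this compartment) disagreed. Clone 1 differed by -0.62 ± 0.25 (adjusted p = 0.205), while clone 2, above background on all 32 arrays, differed by 0.02 ± 0.16 with a 95% interval from -0.31 to 0.35. Those of PDIA3, which makes disulphide bonds in glycoproteins, gave -0.02 and 0.18.

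Among cytosolic HSP70, HSP90 and their partners the clones of 1 gene mostly lay on the same side. HSPA8 (HSC70, the HSP70 that cells make without stress) had 3 clones. Clone 2 gave 0.48, 0.27, 0.37 and 0.72 in LL and -0.18, -0.19, -0.18 and -0.61 in FL, without overlap. Its difference was -0.75 ± 0.27 (adjusted p = 0.169), beside -0.49 ± 0.29 for clone 3 and -0.26 ± 0.23 for clone 1. DNAJA1, a J-domain partner of HSPA8, had 2 clones.

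DNAJA1 clone 2 gave 0.27, 0.55, 0.12 and 0.51 in LL and -0.15, -0.30, 0.13 and -0.42 in FL. The groups overlapped narrowly, at 1 array of each line. The difference was -0.55 ± 0.17 (adjusted p = 0.119), and clone 1 gave -0.73 ± 0.30 (adjusted p = 0.213).

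AHSA1, which speeds the ATPase of HSP90, gave 0.26, 0.22, 0.24 and 0.60 in LL and -0.48, -0.09, -0.07 and -0.68 in FL. The groups did not overlap, but only 1 FL array measured the clone above background. The difference was -0.66 ± 0.22 (adjusted p = 0.137). HSP90AA1, the stress-inducible cytosolic HSP90, differed by -0.18 with a 95% interval from -0.43 to 0.07. HSPA2, an HSP70 known in mammals for its role in sperm, differed by -0.05 with an interval from -0.33 to 0.22.

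Of the 16 clones with an unadjusted p under 0.05, 6 had positive differences. DNAJC12, a J-domain protein that in humans serves the enzymes that hydroxylate aromatic amino acids, gave -0.84, -0.66, -0.01 and -0.34 in LL and -0.18, 0.43, 0.62 and 0.40 in FL. The lines overlapped at 1 array each. The difference was 0.78 ± 0.30 (adjusted p = 0.184). FKBP3, a nuclear prolyl isomerase, gave -0.78, -0.92, -0.48 and -0.42 in LL and 0.16, -0.24, -0.22 and 0.48 in FL, without overlap, and differed by 0.69 ± 0.30 (adjusted p = 0.233). HSPA4, of the HSP110 group that swaps the nucleotide of HSP70, differed by 0.60 ± 0.29 (adjusted p = 0.280, limma). Its LL values ran from -1.07 to 0.31 (median -0.09) and its FL values from 0.20 to 0.47, so the lines overlapped. The LL mean leaned on the array at -1.07.

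**Figure D2:**
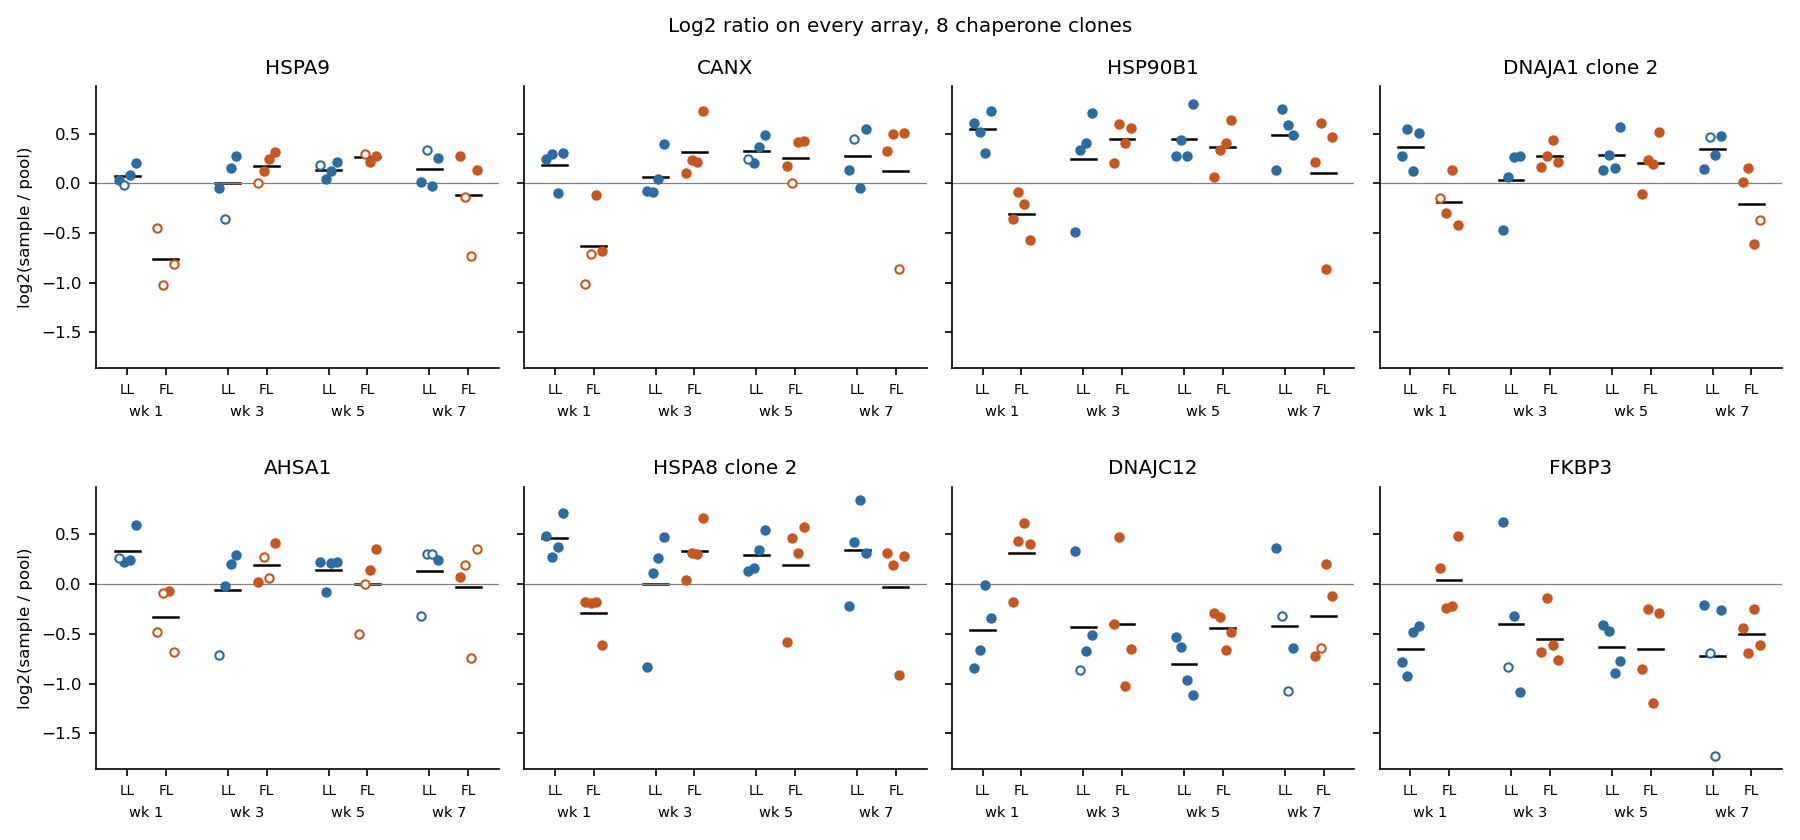
Log2 ratio of sample to pool (vertical axis) on every array for 8 chaperone clones, by line (LL blue, FL orange) and week (wk). Bars are group means, filled points were above background and open points were not; at week 1 the FL points lie below the LL points for HSPA9, CANX, HSP90B1, AHSA1 and HSPA8 clone 2 and above them for FKBP3, and FL week 7 replicate 3 is low for CANX and HSP90B1 (-0.86 each).

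The other FKBP clones were spread around 0 at week 1. FKBP4 (FKBP52, a steroid receptor co-chaperone) differed by -0.28 ± 0.12 (adjusted p = 0.219) and FKBP8, an FKBP of the mitochondrial outer membrane, by 0.29 ± 0.12 (adjusted p = 0.230). The FKBP8 value rested mainly on 1 of its 2 averaged spots, which had 25 usable arrays against 8 for the other and alone gave 0.22. On the 7 arrays where both spots were usable they ran opposite ways (Pearson r -0.76). Only 2 arrays in each line measured FKBP8 above background, and its Cy3 signal gave no bound on the size. FKBP5 (FKBP51, a glucocorticoid target in mammals) differed by -0.08 and FKBP1A (FKBP12, a partner of calcium release channels) by -0.20. FKBP9, an isomerase of the endoplasmic reticulum, had a difference of -0.82 ± 0.44, with usable values on 2 FL arrays.

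The chaperonin clones were spread around 0 at week 1. Of the 9 clones of the cytosolic chaperonin, 0 passed at week 1, 5 were above 0 and 4 below, with a median of 0.06. The highest was CCT5 (0.43), which had 2 usable arrays in each line, of which 1 was above background. CCT7 clones gave -0.32, 0.37 and -0.19, and clone 3 had an unadjusted p under 0.05 (limma). The positive value of clone 2 leaned on 1 FL array at 1.71, and its medians were -0.01 in FL and -0.03 in LL. CCT8 differed by -0.03 with a 95% interval from -0.26 to 0.20, and CCT2 by 0.06 with one from -0.25 to 0.36. For the mitochondrial chaperonin, HSPD1 (HSP60) differed by 0.09 with an interval from -0.08 to 0.25. HSPE1 (HSP10) clone 2 differed by -0.01 with an interval from -0.27 to 0.26. Clone 1 of HSPE1 had means of 0.31 in LL and 0.32 in FL. Clone 3 of HSPE1 differed by 0.31, the highest of the 4 clones of this chaperonin, of which 3 were above 0 and 1 below.

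Of 20 clones of J-domain proteins, 14 were above 0, 6 below and 0 passed. DNAJB13, known from the radial spokes of cilia, differed by 0.31 ± 0.13 (adjusted p = 0.233), and DNAJC3 (P58IPK, a co-chaperone of the endoplasmic reticulum) clone 1 by 0.18 ± 0.08 (adjusted p = 0.263). DNAJA2, a cytosolic relative of DNAJA1, gave -0.16, DNAJC6 (auxilin, which strips clathrin from vesicles) -0.20, and DNAJC13 (an endosomal J-domain protein) 0.10. The small heat shock proteins HSPB1 and HSPB7, which hold unfolded proteins without ATP, gave 0.05 and 0.21. HSPG, whose symbol met the rule but matched no current gene number, gave 0.08 and 0.15. It was placed under no chaperone role here, and its clones count among the 59 members.

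Taken over all 59 clones at week 1, 33 differences were above 0 and 26 below, with a median of 0.06, against a median of 0.05 over all clones tested. At an unadjusted p under 0.05, 10 members were lower in FL, where 10.1% of all clones were, and 6 were higher, where 7.67% were. Together these are 27.1% of the members and 17.7% of all clones, a difference that was not tested. Of the 51 members with a usable value on all 8 arrays, 5 had FL wholly below LL (6.8% of all such clones did), namely AHSA1, CANX, HSP90B1, HSPA8 clone 2 and FKBP4. FKBP3 alone lay wholly above (4.62% of all such clones did).

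The 10 clones lower in FL at week 1 were followed to the other ages, whose arrays entered their choice through the shared estimate of spread. At week 3, 9 of the 10 were higher in FL, with a median of 0.22 and 0 at an unadjusted p under 0.05. At week 5, 8 were lower with a median of -0.09, and at week 7, 9 were lower with a median of -0.21. The week 7 value leaned on FL replicate 3, where the clones' median log2 ratio was -0.73. On the other FL arrays of that week it was 0.17 to 0.22, beside 0.13 to 0.42 on the LL arrays. The week 3 value leaned in part on LL replicate 1, where the clones' median was -0.45. On the other LL arrays of week 3 it was 0.10 to 0.30, beside 0.11 to 0.36 on the FL arrays. Both DNAJA1 clones had an unadjusted p under 0.05 at week 7, with differences of -0.55 ± 0.17 and -0.76 ± 0.30, but did not pass (adjusted p = 1.00 for each, limma). The 6 clones higher in FL at week 1 had medians of -0.08, 0.13 and 0.04 at weeks 3, 5 and 7.

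The week 1 arrays chose these clones, so their separation there is given as a description. The median of the 10 lower clones lay between -0.59 and -0.09 on the FL arrays of week 1 and between 0.18 and 0.50 on the LL arrays of that week. Outside week 1 it was below 0 on 3 arrays: -0.73 on FL week 7 replicate 3, -0.45 on LL week 3 replicate 1, and -0.11 on the first FL array of week 5. The median of the 6 higher clones was above 0 on the 4 FL arrays of week 1 (0.14 to 0.28) and on LL week 3 replicate 1 (0.38). The lowest signal over background of all arrays was that of LL week 3 replicate 1 (2.33), followed by 2.51 on FL week 5 replicate 1. That of FL week 7 replicate 3 was 3.43. Signal was lower than that on FL week 5 replicate 2 (3.15), LL week 7 replicate 1 (3.28) and LL week 5 replicate 1 (3.40). On those arrays the median of the 10 lower clones was 0.14, 0.13 and 0.18. A link between these medians and signal was not tested.

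Neuron markers were low on the same FL arrays. Of 7 marker clones, 6 were lower in FL at week 1, with a median of -0.59, and 0 passed. The remaining clone was higher in FL, at 0.72. Their mean log2 ratio per array lay between -0.47 and -0.22 in FL and between -0.03 and 0.07 in LL. Outside week 1 the lowest means were -0.51 on FL week 7 replicate 3, -0.23 on LL week 7 replicate 3 and -0.19 on LL week 3 replicate 1. The median of the 10 chaperone clones was -0.73, 0.28 and -0.45 on these arrays, in the same order. TUBB3, the neuronal tubulin, gave -1.05 ± 0.25 (adjusted p = 0.0573) and SNAP25, a synaptic fusion protein, -0.10 ± 0.18. Oligodendrocyte markers were lower in 4 of 5 clones (median -0.32), astrocyte and ependyma markers in 4 of 4 (median -0.17) and choroid plexus markers in 5 of 7 (median -0.26). Higher in FL were both POMC clones (0.14 and 0.22), both red blood cell clones (median 0.14) and 6 of 8 microglia and leukocyte clones (median 0.19). Markers of the anterior pituitary, endothelium and dividing cells were mixed, with 4 of 7, 3 of 5 and 3 of 6 clones higher. The part of cell makeup or of array signal in the chaperone differences was not tested, beyond the fit with signal as a covariate, in which 0 clones passed at week 1.

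**Figure D3:**
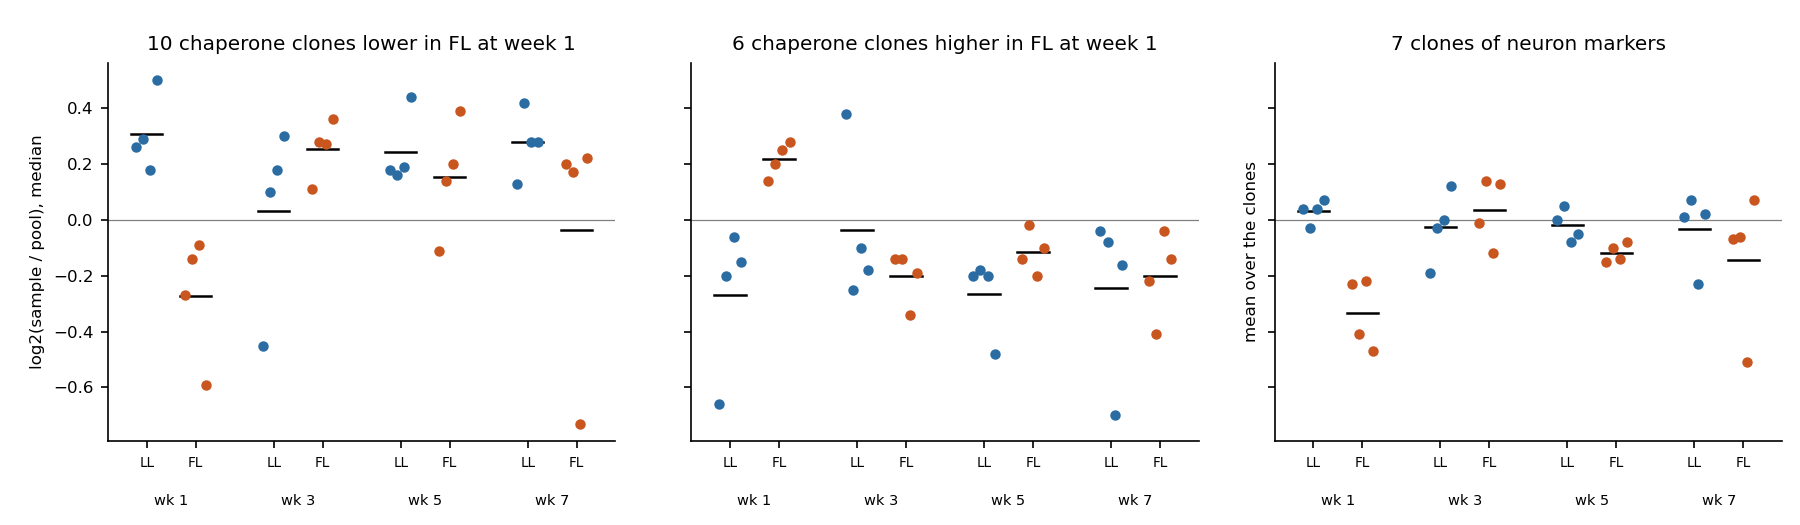
Log2 ratio per array, by line (LL blue, FL orange) and week (wk): the median of the 10 chaperone clones lower in FL at week 1 (left), the median of the 6 higher (middle), and the mean of 7 clones of neuron markers (right). Bars are group means; on the left the FL arrays of week 1 lie below 0, as do FL week 7 replicate 3 (-0.73) and LL week 3 replicate 1 (-0.45), and on the right the lowest array is FL week 7 replicate 3 (-0.51).

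At the other ages the lines were compared by the fit alone, and overlap of their arrays was not counted. For the line difference at weeks 3, 5 and 7, 0 of 59 members passed, as did 0% of all clones. At an unadjusted p under 0.05 (limma) there were 1, 0 and 3 members (1.69%, 0% and 5.08%). Over all clones the shares were 2.37%, 2.77% and 3.82%. The smallest p of the members at week 3 was that of DNAJB5, a cytosolic J-domain protein, clone 1 (0.46 ± 0.22). At week 5 it was that of DNAJA3, the mitochondrial J-domain partner of HSPA9 (-0.33 ± 0.18). CCT5, a chaperonin subunit, gave -0.60 ± 0.28 at week 7 on 2 usable FL arrays, and was above background on 1 of 4 arrays in each line.

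Across the 4 ages, 0 of 59 members passed, against 0.0448% of all clones. The smallest unadjusted p belonged to DNAJA1 clone 2 (-0.23 ± 0.09), followed by HSPA9 (-0.20 ± 0.08) and DNAJB5 clone 1 (0.27 ± 0.11). Next came HSP90B1 (-0.28 ± 0.12) and DNAJC12 (0.32 ± 0.15), and each of these clones had an adjusted p of 0.831 (limma). At week 3 the means of HSPA9 (0.17 in FL, 0.005 in LL) and DNAJA1 clone 2 (0.27, 0.03) were higher in FL. So was that of HSP90B1 (0.44, 0.24). The LL arrays of week 3 varied widely for these clones (SD 0.28, 0.35 and 0.52 in that order, against 0.14, 0.12 and 0.18 in FL). HSPA9 was also higher in FL at week 5 (0.26, 0.14), and its Cy3 signal gave no bound on the size across the ages. DNAJB5 clone 1 and DNAJC12 were higher in FL at all 4 ages. The test of whether the line difference changed with age passed for 0 members and 0% of all clones. An unadjusted p under 0.05 (limma) was seen for 5 of 59 members, beside 634 of all 8932 clones. HSPA9 came first among these members (adjusted p = 0.317, limma), and 1 member passed when FL week 7 replicate 3 was left out. Over the fits with 1 array left out, 0 to 35 of all clones passed that test.

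Clones of 1 gene gave a check on each other. In 11 genes with several tested clones there were 19 pairs, and the Pearson correlation of their log2 ratios over the arrays was positive in 15, with a median of 0.30 and a range from -0.49 to 0.92. These points share groups and arrays, so the correlations are descriptions. HSPA8 clones 2 and 3 gave 0.92 (Spearman rho 0.84, 32 arrays) and the DNAJA1 clones 0.77 (rho 0.68, 32 arrays). The CCT4 clones gave -0.49 (rho -0.48, 24 arrays) and the PDIA3 clones -0.39 (rho -0.36, 25 arrays), so no single value stands for those genes.

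**Figure D4:**
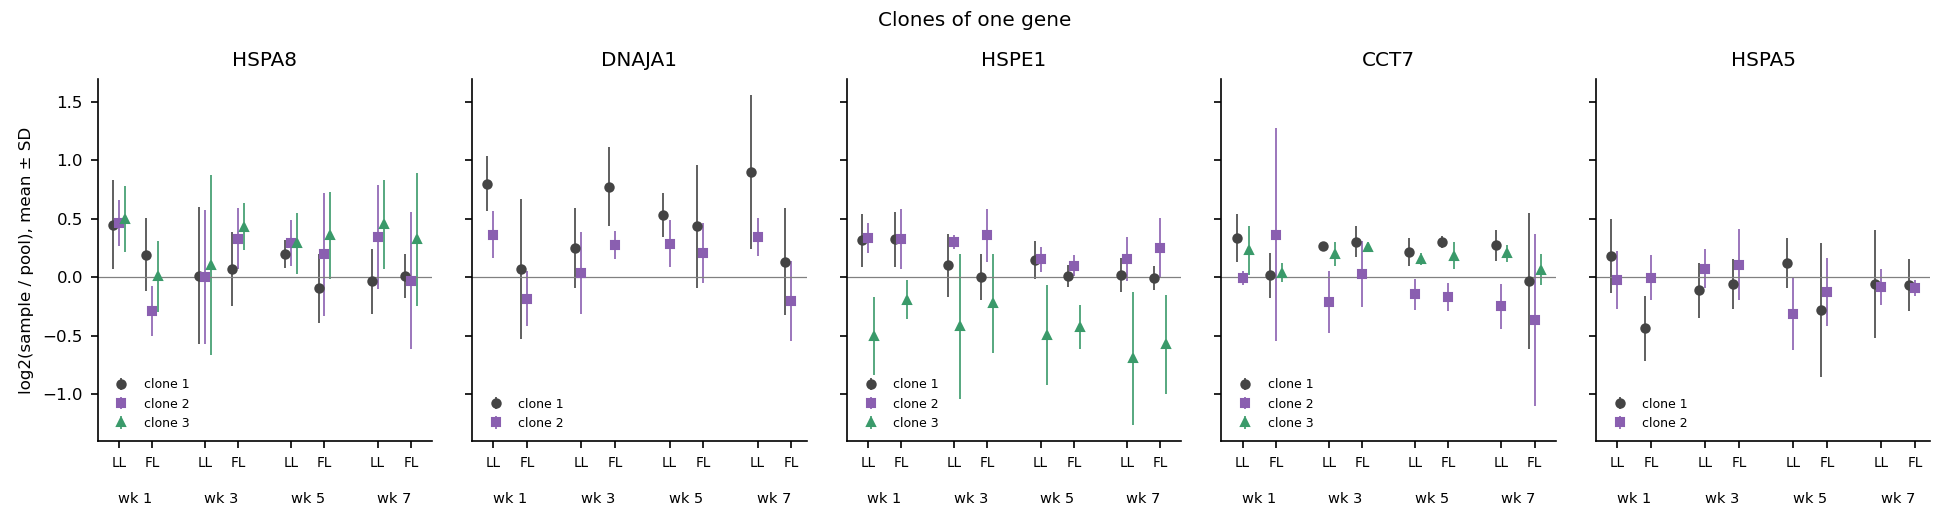
Mean log2 ratio of sample to pool (vertical axis, ± SD, 3 or 4 usable arrays a group) for each tested clone of HSPA8, DNAJA1, HSPE1, CCT7 and HSPA5, by line and week (wk). HSPA8 clones 2 and 3 and the DNAJA1 clones follow each other (r of 0.92 and 0.77 over the arrays), whereas HSPE1 clones do so little (r from -0.13 to 0.35), and CCT7 clone 2 follows neither clone 1 (r -0.21) nor clone 3 (r 0.07).

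With age, averaged over the lines, 0 of 59 members passed between weeks 7 and 1, against 2.63% of all clones. That share was unsteady: 235 clones passed, and 85 to 621 when 1 array was left out, the most without FL week 7 replicate 3. At an unadjusted p under 0.05, 8 members were lower at week 7, where 9.44% of all clones were, and 2 were higher, where 9.16% were. The shares of members and of all clones at that level were 16.9% and 18.6%. Of 48 members with values on all 16 arrays, 0 had ages that did not overlap (0.0584% of all such clones were wholly higher and 0.0438% wholly lower). The median over the members was -0.01, against -0.02 over all clones.

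DNAJC3 clone 1 came nearest. Over the LL arrays it gave -0.16, 0.14, 0.03 and 0.04 at week 1 and -0.11, -0.01, -0.31 and 0.10 at week 7. Over the FL arrays it gave 0.05, 0.32, 0.25 and 0.15 at week 1 and -0.19, 0.02, -0.07 and -0.21 at week 7. The ages overlapped in LL and not in FL. The difference was -0.20 ± 0.06 (adjusted p = 0.0661, and 0.0427 without FL week 7 replicate 3, limma). Clone 2 gave -0.47 ± 0.18 (8 of 8 arrays, adjusted p = 0.152, limma). Its Cy3 signal, however, ran the other way from its ratio (log2 13.7 at week 1 and 13.9 at week 7).

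HSPE1 clone 1 gave 0.29, 0.19, 0.14 and 0.64 in LL and 0.51, 0.39, 0.41 and -0.02 in FL at week 1. At week 7 it gave -0.05, 0.14, -0.15 and 0.13 in LL and -0.16, 0.04, 0.04 and 0.05 in FL. The difference was -0.31 ± 0.10 (8 of 8 arrays, adjusted p = 0.0754), but only 2 of 8 week 7 arrays measured the clone above background. Clones 2 and 3 of the gene gave -0.13 ± 0.09 and -0.28 ± 0.20.

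DNAJC2, a J-domain protein of the ribosome, gave 0.61, 0.42, 0.54 and 0.60 in LL and 0.55, 1.26, 0.56 and 0.65 in FL at week 1. At week 7 it gave 0.44, 0.20, 0.51 and 0.30 in LL and 0.36, 0.36, 0.65 and 0.20 in FL. The difference was -0.27 ± 0.10 (8 of 8 arrays, adjusted p = 0.129), and the ages overlapped in both lines. Among chaperonin subunits, CCT6A gave -0.27 ± 0.09 (adjusted p = 0.119, limma), CCT4 clone 2 -0.40 ± 0.17 and CCT7 clone 2 -0.48 ± 0.21. Only 3 of 8 week 7 arrays measured CCT6A above background, and its Cy3 signal gave no bound on the size. The other clones of CCT4 and CCT7 gave -0.01, -0.05 and -0.0003, so within CCT4 and CCT7 the value depended on the clone. CCT7 clone 2 had a week 1 array at 1.71 and a week 7 array at -1.44. Its medians were -0.03 at week 1 and -0.25 at week 7. Over the 9 chaperonin clones, 7 were below 0 and 2 above, with a median of -0.05.

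The 2 clones on the higher side at week 7 were HSPA9 (0.35 ± 0.12, adjusted p = 0.109) and CANX (0.42 ± 0.16, adjusted p = 0.156). In FL alone they differed between weeks 7 and 1 by 0.64 ± 0.17 (adjusted p = 0.0637) and 0.75 ± 0.23 (adjusted p = 0.104). In LL alone they differed by 0.07 and 0.09. Since no FL array of week 1 measured HSPA9 above background, its values here are not sizes. In the Cy3 channel the bound in FL, taken as for week 1, was 1.00-fold, and over both lines the data gave no bound. The FL comparison shares its week 1 arrays with the line difference at week 1 and is no separate evidence. The difference between the lines' age effects was 0.57 ± 0.24 for HSPA9 and 0.66 ± 0.32 for CANX (adjusted p = 0.953 for both). Without FL week 7 replicate 3, the adjusted p of HSPA9 was 0.00711 over both lines and 0.00126 in FL, with the same limit on its size, and CANX passed in FL (1.08, adjusted p = 0.00071).

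Within lines, 0 of 59 members passed between weeks 7 and 1 in FL, against 1.29% of all clones (115, and 26 to 514 with 1 array left out), and 0 in LL, against 0.0672%. In FL 11 members had an unadjusted p under 0.05 (limma) and in LL 5. Of all clones 14.4% and 9.20% did, and of the members 18.6% and 8.47%. After HSPA9, the smallest p in FL was that of DNAJC3 clone 1 (-0.31 ± 0.08, adjusted p = 0.0637). In LL the smallest p was that of CCT5 (adjusted p = 0.435). That clone was above background on 1 of 4 LL arrays at each age, and its Cy3 signal ran the other way from its ratio (log2 10.7 at week 7 and 11.3 at week 1), so no size is given.

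By steps, 0 members passed from week 1 to 3, against 0.123% of all clones, and 0 from week 3 to 5 and from week 5 to 7, as did 0% of all clones. Unadjusted p under 0.05 (limma) was seen for 8, 2 and 0 members (13.6%, 3.39% and 0%), against 12.1%, 2.02% and 1.16% of all clones. The 8 clones lower at week 7 had a median of -0.27 from week 1 to 3, a step that shares its week 1 arrays with the comparison that chose them. HSPA9 had the smallest p of the members at that step (adjusted p = 0.147, and 0.0273 without FL week 7 replicate 3), with no fold given for want of signal in FL at week 1. The later steps had medians of 0.02 and -0.06 over these clones. HSPA5 clone 2 had the smallest p from week 3 to 5 (-0.31 ± 0.11, adjusted p = 0.997), and HSPA13, a microsomal HSP70 relative, gave -0.17 ± 0.10 at that step.

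Markers of several cell types differed over the same ages. Both red cell clones were lower at week 7 (median -0.83), and HBBA, a globin gene, passed with -1.35 ± 0.15 (adjusted p = 7.5e-06). All 6 clones of dividing cells were lower, with a median of -0.19, and TOP2A, a topoisomerase of dividing cells, passed with -1.10 ± 0.19 (adjusted p = 0.00209). All 4 clones of astrocytes and ependyma were higher (median 0.39), of which CLU, a secreted chaperone of glia, passed with 0.46 ± 0.06 (adjusted p = 0.00017). A clone of ENPP2, a choroid plexus marker, passed with 1.24 ± 0.26 (adjusted p = 0.0124, limma). Choroid plexus markers were mixed, with 5 of 7 clones higher, 2 lower (lowest -1.28) and a median of 0.05. One clone of CD74, an antigen presentation gene, passed with 0.84 ± 0.20 (adjusted p = 0.0262, limma). Of the 8 clones of microglia and blood leukocytes, 5 were lower and 3 higher, with a median of -0.07. Other clones of ENPP2 and CD74 did not pass. The part of these markers in the chaperone values was not tested.

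**Figure D5:**
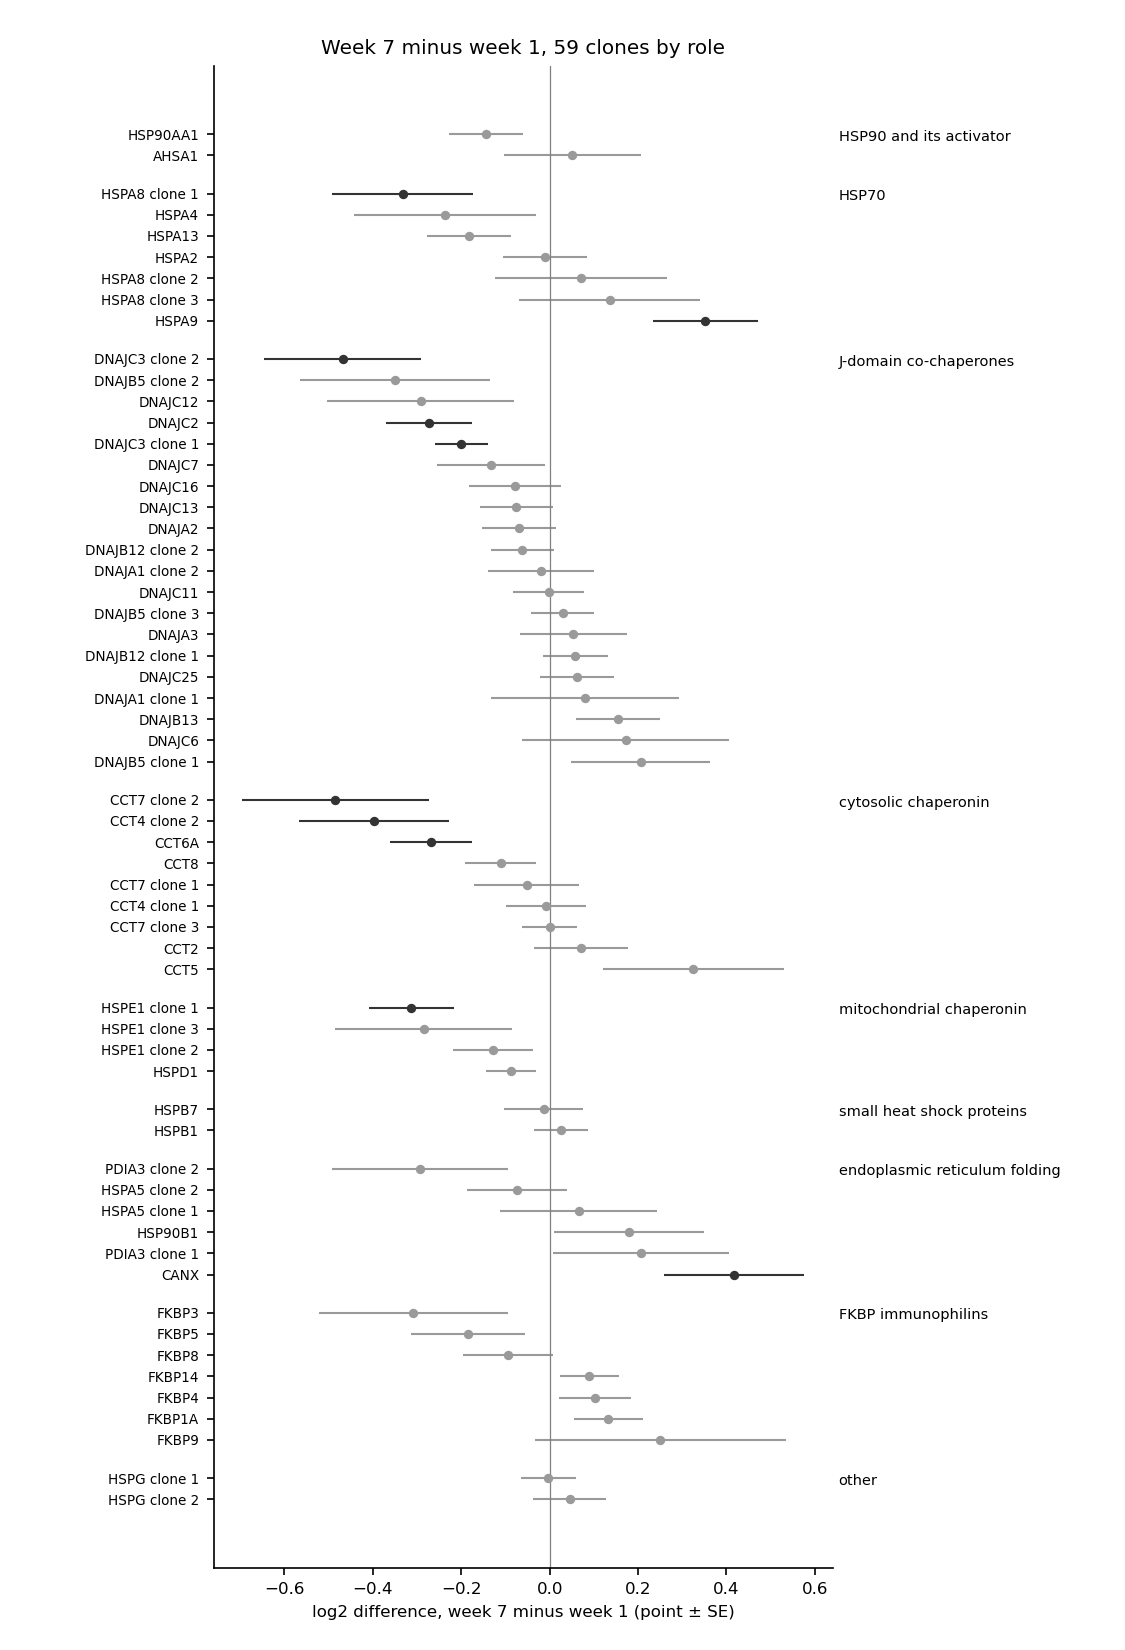
Difference in mean log2 ratio between weeks 7 and 1 over both lines (horizontal axis, week 7 minus week 1, point ± SE). Shown are the 59 tested member clones, grouped by role. Dark grey marks clones with an unadjusted p under 0.05 (8 lower, 2 higher) and light grey the rest; no clone passed.

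Genes that work beside the chaperones were read from 4 further lists. For chaperone partners and regulators, 16 clones of 12 genes were tested, and 1 passed at week 1: VCP, the ATPase that pulls proteins out of membranes and complexes for the proteasome, at -0.78 ± 0.15 (adjusted p = 0.0180), while its other clone gave -0.67 ± 0.27 (adjusted p = 0.211). The list had 11 of 16 clones below 0 and a median of -0.09. PPID, a prolyl isomerase that rides on HSP90, gave 0.84 ± 0.29 (adjusted p = 0.153).

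For the unfolded protein response, 21 clones of 15 genes were tested and 0 passed at week 1 or between weeks 7 and 1, with medians of 0.05 and 0.01. ATF4, a transcription factor of that response, gave -0.43 and -1.23 at week 1 in its 2 clones, and -0.27 and 0.89 between weeks 7 and 1. HYOU1, an HSP110 relative of the endoplasmic reticulum, gave 0.31 ± 0.14 at week 1. Of 8 clones for mitochondrial protein quality control 0 passed, and TRAP1, the mitochondrial HSP90, gave 0.26 ± 0.07 at week 1 (adjusted p = 0.0939), on the other side from HSPA9. Of the prefoldins and tubulin cofactors, which hand tubulin to and from the chaperonin, 2 clones were tested and 0 passed.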

How the data were processed

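Each of the 32 array files holds, per the file headers, spot intensity in both channels, local background, spot area, a quality letter and the authors' log2 ratio. The sources used here do not give how the authors scanned and scaled them. Raw intensities as deposited were divided by spot area, corrected by normexp (offset 50) and normalized by global loess (span 0.3, 4 iterations) in limma 3.58.1 (R 4.3.3). Spots with a letter that the headers call unsatisfactory were left out. Letter S, not in that key, was kept. Spots of 1 accession were averaged.

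A clone was tested when its signal passed the 95th percentile over 960 empty spots on at least 3 of the 4 arrays of a group and had 2 values in every group. The choice to use all measured empty spots was made after the calls under it and under the alternative were seen. Group means were fitted over all arrays (24 residual degrees of freedom). Whether replicates were separate birds is stated only as biological replicates, so p-values measure the spread between these arrays. The number of arrays limits the precision.

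Spot names came from the array files. Members, roles and lists were chosen with earlier results of these data known. Named were members that passed, the 5 with the smallest p in each comparison and the main chaperone of each compartment. FKBP3, FKBP9, DNAJC6 and HSPB7 were chosen after their values were seen. The fit was tested on simulated data. No sequences were used here. Replicate numbers came from file names. Over 112 same-number pairs the deviations correlated by 0.09 on average (highest 0.62), with 50 pairs over 0.1, against -0.03 over 336 pairs of unlike number. Signal over background mostly rose with the number, as from 3.83 to 7.72 in LL at week 1. The main fit did not take the numbers as pairs, so any effect shared by arrays of like number stays in it. A fit with the number as a block is among the alternatives below.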

Additional observations from a re-analysis of the deposited data

Results flagged for a closer look

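In 7 of 74 groups of 4 arrays checked, 1 array lay far from the other 3, where chance flags about 1 in 20. The groups checked were those of the clones with the 5 smallest p at week 1 or between weeks 7 and 1, and of the members' median. Those clones were chosen from these same data, so the share is not a rate for all members. CANX stood at -0.86 on FL week 7 replicate 3, against 0.33 to 0.51 on the other FL arrays of that week. AHSA1 stood at 0.60 on LL week 1 replicate 4 (others 0.22 to 0.26), at -0.08 on LL week 5 replicate 2 (others 0.21 to 0.22) and at -0.32 on LL week 7 replicate 1 (others 0.24 to 0.30). HSPE1 clone 1 stood at -0.16 on FL week 7 replicate 1 (others 0.04 to 0.05). DNAJC2 stood at 1.26 on FL week 1 replicate 2 (others 0.55 to 0.65). The median of the chaperone clones stood at -0.13 on FL week 5 replicate 1 (others -0.02 to 0), the array with the second lowest signal over background.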

How the results depend on the processing

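The count of chaperone clones that passed for the line difference at week 1 was 1, and 0 with scaling between arrays, a stricter filter, no filter, the authors' log2 ratios, array signal as a covariate, only the groups compared, or the threshold from satisfactory empty spots. Between weeks 7 and 1 the count was 0, and 6 without background subtraction, 1 with print-tip loess, 1 with the authors' log2 ratios, 1 with the replicate block, 5 with array weights and 4 without the 4 arrays of lowest signal. In FL alone it was 0, and 3 without background subtraction, 1 with median centring, 1 with print-tip loess, 1 with no filter, 2 with the replicate block, 3 with array weights and 3 without those 4 arrays. From week 1 to 3 it was 0, and 1 with array weights. Counts over all clones under these settings are not given here, so the member counts are not read as results about chaperones. Leaving out 1 array in turn gave 0 to 3 at week 1, 0 to 4 between weeks 7 and 1, 0 to 1 from week 1 to 3, 0 to 4 in FL and 0 to 1 for the interaction. Over all clones tested, the same fits gave 3 to 239, 85 to 621, 4 to 76, 26 to 514 and 0 to 35, in that order. Leaving out FL week 7 replicate 3 gave the highest member count at week 1. Without FL week 1 replicate 1, 3 chaperone clones passed between weeks 7 and 1. The HSPA2 line difference at week 5 turned to -0.0324 without background subtraction and to -0.0248 with the authors' log2 ratios. The cause was not tested in any of these. The threshold and the 4 left-out arrays were alternatives chosen after seeing the data, and the threshold in use was settled after both sets of calls were seen. Clones near background have values that depth of signal limits.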
